A study of Rattus norvegicus with 12 samples.

Results

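The insulin-like growth factor (IGF) family was followed through 12 rat RNA-seq libraries as 10 named genes: the growth factors Igf1 and Igf2, the receptors Igf1r and Igf2r, and the binding proteins Igfbp2, Igfbp3, Igfbp4, Igfbp5, Igfbp6 and Igfbp7. The genes were chosen by name, and estimated reads and TPM (a length-corrected level that adds up to 1000000 per library) were summed over their 15 RefSeq transcripts. They were 10 of 17379 features in the files, and 10 of 10 passed the filter on low counts. All rats were male SAS Fischer animals of 200 to 225 g. Hematoma made up 3 groups, each taken from a femoral defect, labelled normal healing at 0.5 mm, delayed healing at 1.5 mm and nonunion at 5.0 mm. The preOP group was untreated healthy femur, the piece cut out at surgery to make the 5.0 mm defects. Each group held 3 libraries. The labels give neither the time of sampling nor whether the libraries came from separate animals, so p-values measure the spread between these samples, which may be technical.

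IGF1 and IGF2 are secreted peptides that act through the receptor tyrosine kinase IGF1R and drive growth, survival and matrix production. Bone holds both in large store, and in the skeleton they act on osteoblasts and chondrocytes. Binding proteins in the extracellular fluid prolong the life of the peptides and hold them from, or deliver them to, the receptor, and proteases that cut the binding proteins set the peptides free.

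Totals ran from 16808993 to 24325162 estimated reads per library. In nonunion 2, 72.2% of reads fell on ribosomal RNA, against at most 1.74% in every other library, which left 6770186 reads for all other genes there. In the 3 normal healing files Salmon's effective length fell short of the full transcript by a median of 157 to 192 bases. In the other 9 files that median was 194 to 255 bases, with the lowest in nonunion 2. This difference in effective length and the normal healing group cannot be told apart, and its source was not tested. Erythroid markers set the femur apart, at 1.29e+05 to 2.30e+05 counts per 1000000 reads (CPM) in preOP against 1089 to 23313 CPM in hematomas. Osteocyte markers summed to 37.5 to 42.9 CPM in preOP, 212 to 328 in normal healing, 0.230 to 3.09 in delayed healing and 1.62 to 6.01 in nonunion. Osteoblast markers reached 18238 to 27397 CPM in normal healing, 4195 to 15536 in delayed healing, 4281 to 5265 in nonunion and 2252 to 2511 in preOP. Most of that sum was Col1a1 in every library, and other markers ran differently. Bglap was at 190 to 259 CPM in preOP and at 0.579 to 1.75 CPM in delayed healing and nonunion. Against preOP, 4 of 8 osteoblast markers were called lower and 1 higher in delayed healing, and 4 lower and 0 higher in nonunion. Libraries delayed 2 and nonunion 2 stood apart by skeletal muscle and adipocyte markers, respectively, and results that rest on them are given with and without them.

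Igf1, Igfbp2 and Igfbp7 were lower in delayed than in normal healing hematoma, and were the 3 members called in that comparison. Over all genes, 7.13% were called there. The 3 calls lie near the threshold: Igf1 and Igfbp7 were called in 0 of 6 fits that left out 1 library, and Igfbp2 in 1 of 6. In every hematoma group Igf2r and Igfbp3 were higher than in femur. Between nonunion and delayed healing edgeR called no member, and 0 of all 12474 genes tested. The windows around the annotated starts of the 3 genes called between delayed and normal healing are shown because they let the genes be compared at the sequence level. They come from RefSeq on build GRCr8, run 5′ to 3′ on the plus strand from 250 bases before to 50 after the start, and carry matches to a GC box (GGGCGG, either strand) in capitals. They lie at chr7:24172282-24172581 for Igf1, chr9:81864561-81864860 for Igfbp2 and chr14:31091486-31091785 for Igfbp7.
Igf1: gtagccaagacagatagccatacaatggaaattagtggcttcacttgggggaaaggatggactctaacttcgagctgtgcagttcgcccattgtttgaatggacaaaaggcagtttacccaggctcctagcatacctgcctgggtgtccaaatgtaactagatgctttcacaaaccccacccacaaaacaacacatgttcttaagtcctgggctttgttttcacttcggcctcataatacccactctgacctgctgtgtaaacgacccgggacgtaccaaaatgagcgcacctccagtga
Igfbp2: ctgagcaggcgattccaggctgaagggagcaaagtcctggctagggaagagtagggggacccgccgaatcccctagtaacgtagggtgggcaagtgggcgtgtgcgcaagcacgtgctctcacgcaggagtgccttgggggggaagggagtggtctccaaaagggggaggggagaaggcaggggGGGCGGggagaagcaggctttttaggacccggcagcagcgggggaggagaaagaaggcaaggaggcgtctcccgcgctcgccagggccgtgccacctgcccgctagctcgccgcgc
Igfbp7: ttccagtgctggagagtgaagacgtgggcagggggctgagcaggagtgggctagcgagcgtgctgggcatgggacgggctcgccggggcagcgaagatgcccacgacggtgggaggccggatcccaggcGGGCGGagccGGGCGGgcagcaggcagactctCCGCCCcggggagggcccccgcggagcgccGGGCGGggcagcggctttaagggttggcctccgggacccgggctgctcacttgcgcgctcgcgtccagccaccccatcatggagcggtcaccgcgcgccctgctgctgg

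The 3 windows differed in composition. The Igf1 window held 7 CpG dinucleotides and 48.3% G or C, against a median of 7 and 51.7% over 33469 such windows of 300 bases. The Igfbp2 window had 20 CpG and 66.7% G or C, and that of Igfbp7 had 32 CpG and 74.3%. GC box letters occurred 0 times in the Igf1 window, 1 time at -66 in Igfbp2, and 4 times in Igfbp7, at -121, -111, -59 and, on the minus strand, -89. Of all windows, 33.1% held that motif. None of the 3 held TATAAA (14.2% of all windows), CCAAT (37.5%) or the AP-1 letters TGANTCA (7.33%), each searched on both strands. A match is a description of letters, not of a bound site. In the order of genes on that assembly Igfbp2 and Igfbp5 are neighbours on chromosome 9, and Igfbp3 lies beside Igfbp1 on chromosome 14.

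**Figure D1:**
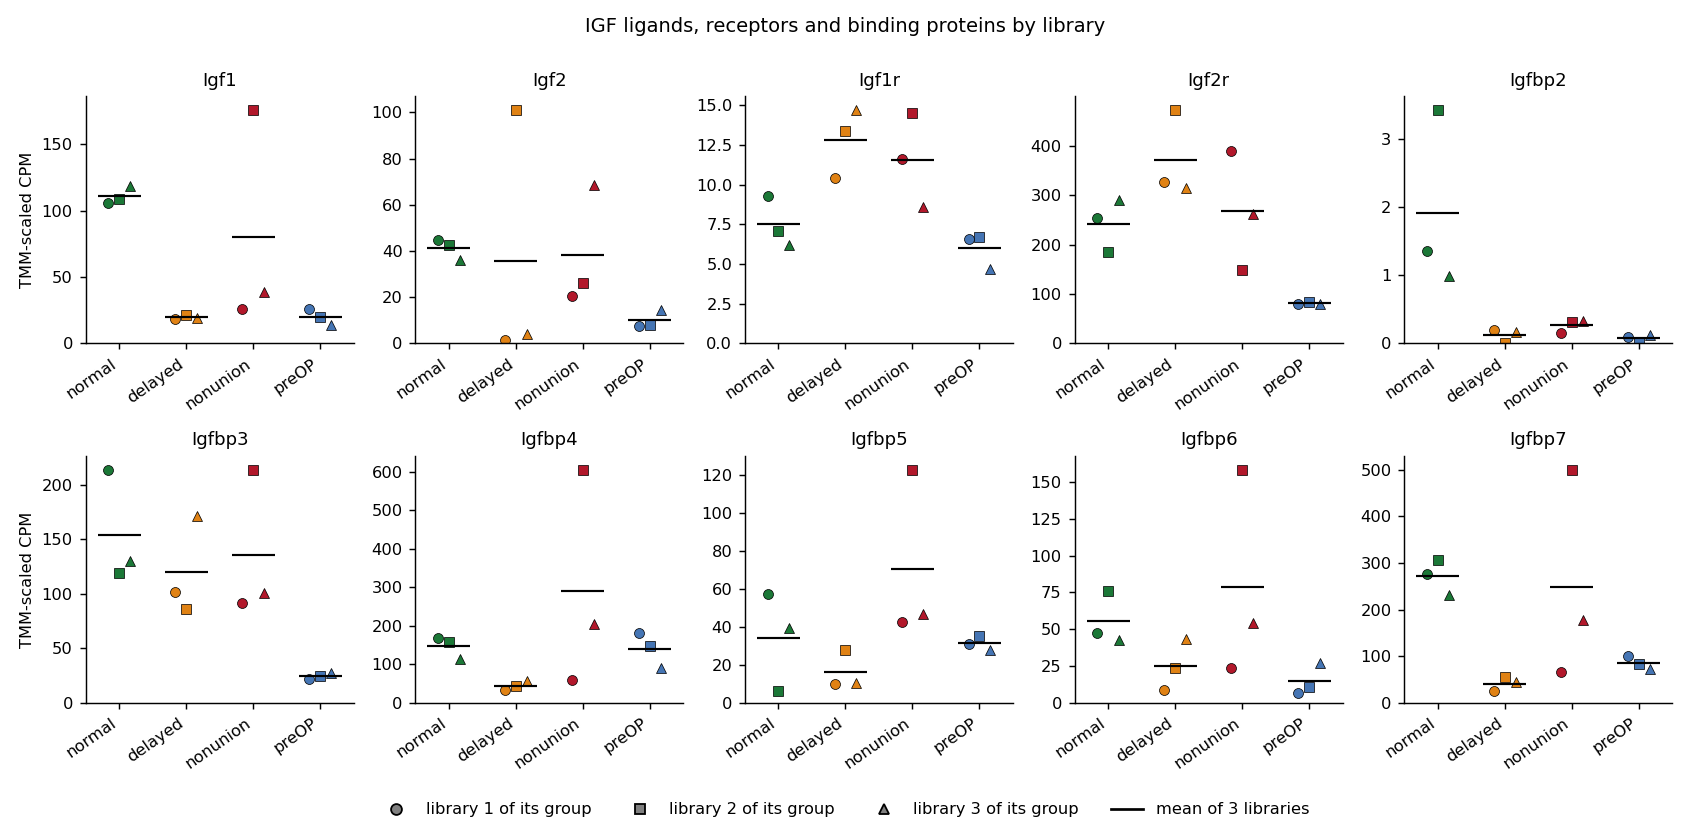
Each panel plots TMM-scaled CPM on a linear axis from 0 for 1 of the 10 genes, by group, with a point for each library and a bar at the mean of 3 libraries. Igf1 sits at 106 to 118 CPM in normal healing and at 18.6 to 21.7 in delayed healing, while Igf2 spans 1.61 to 101 CPM within delayed healing.

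Taken per length, Igfbp7 led the family in 3 of the 4 groups. Its mean TPM was 343 ± 42.6 (SD, n = 3) in normal healing, above every other member in each library. Igfbp6 (90.8 ± 7.21 TPM), Igfbp4 (87.2 ± 19.03), Igfbp3 (83.8 ± 36.5) and Igf1 (81.7 ± 19.8) followed with overlapping libraries. Next came Igf2r, Igfbp5 and Igf2, at 34.6 ± 13.9, 30.7 ± 24.0 and 14.4 ± 2.52 TPM, which overlapped each neighbour in that order. Igf1r and Igfbp2 were lowest, at 1.99 ± 0.586 and 1.86 ± 0.826 TPM, and did not separate from each other. In delayed healing the order was Igfbp3 (78.4 ± 36.9 TPM), Igfbp7 (68.0 ± 26.3), Igf2r (59.8 ± 11.8), Igfbp6 (58.7 ± 45.3) and Igfbp4 (32.9 ± 11.0), with overlap between all neighbours. Below these stood Igf1 at 17.4 ± 1.76 TPM, and Igfbp2 was lowest at 0.159 ± 0.137.

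In nonunion, neighbours in the order overlapped from Igfbp7 (180.3 ± 94.4 TPM) down to Igf1r (2.50 ± 1.60), and Igfbp2 alone was set apart at the bottom, at 0.247 ± 0.189 TPM. TPM in nonunion 2 are lowered by its ribosomal share. In femur, Igfbp7 (85.7 ± 23.3 TPM) and Igfbp4 (64.4 ± 27.1) overlapped and stood above the rest. Igfbp5, Igfbp6, Igf1 and Igfbp3 followed at 19.6 ± 4.50, 18.8 ± 10.7, 11.5 ± 4.55 and 9.68 ± 0.769 TPM. Igf2r, Igf2, Igf1r and Igfbp2 came last, each below its neighbour in every library, at 8.26 ± 1.13, 2.55 ± 0.622, 1.18 ± 0.351 and 0.0572 ± 0.0496 TPM.

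As a share of the summed TPM of the 10 genes, Igfbp7 made up 43.0, 48.3 and 43.3% in normal healing and 17.3, 22.7 and 17.8% in delayed healing. It took 27.0, 39.0 and 36.7% in nonunion and 41.0, 37.7 and 36.4% in preOP. The delayed healing share was thus the lowest in all 3 libraries. There, Igf2r took 22.9, 19.1 and 12.6%, against 3.16 to 5.94% in normal healing, 15.8, 1.23 and 5.55% in nonunion and 3.35 to 4.16% in femur. The 6 binding proteins together held 79.2 to 84.8% of the family in normal healing, 64.8 to 81.8% in delayed healing, 75.6 to 90.2% in nonunion and 89.3 to 89.5% in femur. The family as a whole reached 622 to 896 TPM in normal healing, 220 to 446 in delayed healing, 343 to 786 in nonunion and 168 to 262 in femur. The 343 TPM is that of nonunion 2, whose TPM are lowered by its ribosomal share of 72.2%. Shares of 1 total are tied to each other, so a lower share of one gene raises the others.

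**Figure D2:**
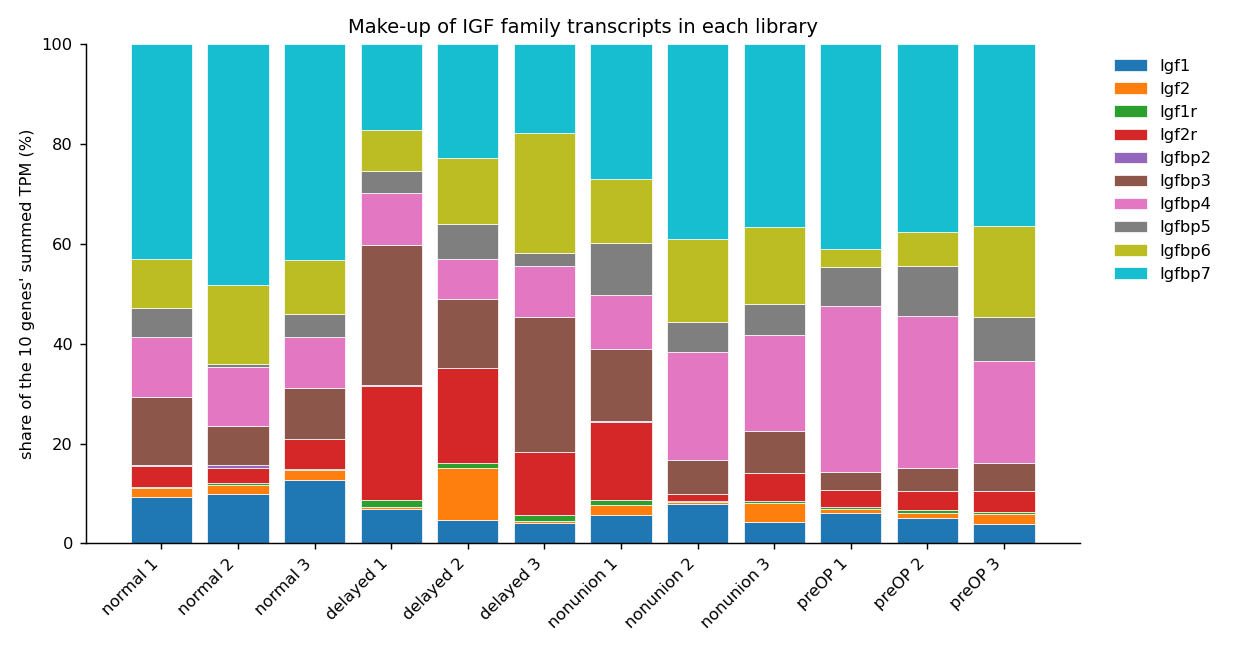
Stacked bars give each gene's share, in percent, of the summed TPM of the 10 genes in each of the 12 libraries. Igfbp7 takes 17.3 to 22.7% in the delayed healing libraries and 43.0 to 48.3% in the normal healing ones, and Igf2r takes 12.6 to 22.9% in delayed healing.

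Between delayed and normal healing hematoma, which asks how the family differs between defects of 1.5 and 0.5 mm, edgeR's quasi-likelihood test called 3 of 10 members, all lower in delayed healing. Called here means a Benjamini-Hochberg adjusted p below 0.05 over all genes tested. Over all 12474 genes, 7.13% were called, 334 higher and 555 lower. The median log2 fold change was -1.14 over the 10 members and 0.02 over all genes. Libraries of the 2 groups did not overlap for 6 members: Igf1, Igfbp2, Igfbp4 and Igfbp7 were lower in all 3 delayed libraries, and Igf1r and Igf2r higher. Over all genes tested, 36.5% did not overlap in one direction or the other. In bulk tissue, fewer cells of a type and less RNA per cell cannot be told apart.

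Igf1, the main local and endocrine growth factor of the family, was at 106, 109 and 118 CPM in normal healing and at 18.6, 21.7 and 19.2 CPM in delayed healing. The libraries were tight within both groups, with means of 111 ± 6.57 and 19.8 ± 1.63 CPM (SD, n = 3), a 5.61-fold difference. The log2 fold change was -2.51 (SE 0.63, edgeR adjusted p = 0.047). That call lies close to the threshold: it was lost in 6 of 6 fits that left out 1 library, with adjusted p from 0.0823 to 0.125 and a log2 fold change of -2.55 to -2.44. With all libraries kept it was also lost with DESeq2's size factors (0.0556), no filter (0.0512), effective lengths (0.0517) and the replicate block (0.0604), each an edgeR adjusted p. Of 7 alternative fits, apart from those that left out 1 library, 3 kept the call.

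Igfbp7, a secreted protein of vessels and matrix with weak affinity for IGFs, was at 277, 307 and 231 CPM in normal healing. In delayed healing it was at 25.1, 56.2 and 44.0 CPM. The lowest normal library was thus well above the highest delayed one, and the means of 271 ± 38.3 and 41.8 ± 15.7 CPM (SD, n = 3) differ 6.50-fold. The log2 fold change was -2.72 (SE 0.65, edgeR adjusted p = 0.0399), and without any 1 of the 6 libraries the adjusted p was 0.0602 to 0.119. The other alternative fits kept the call in 7 of 7, with adjusted p of up to 0.0478. The 6 endothelial markers (6 of 6 in the files) summed to 476 to 506 CPM in normal healing and 148 to 283 CPM in delayed healing, with 2 of 6 called lower. Their part in the Igfbp7 result was not tested.

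Igfbp2, a binding protein of high IGF2 affinity that osteoblast-lineage cells make, rested on few reads: 27, 56 and 22 in normal healing against 5, 0 and 4 in delayed healing. This is 1.35, 3.43 and 0.99 CPM against 0.19, 0 and 0.16 CPM, where 3 reads in delayed 2 would be 0.155 CPM. All 3 normal libraries were above all 3 delayed ones, with means of 1.92 ± 1.31 and 0.118 ± 0.103 CPM (SD, n = 3). The log2 fold change was -3.88 (SE 0.91, edgeR adjusted p = 0.0383). The call was lost in 5 of 6 fits without 1 library, where the adjusted p ran up to 0.117, and was kept without delayed 2. With all libraries it was also lost with no filter (edgeR adjusted p = 0.0519), only the groups compared (0.0568) and the replicate block (0.0878). Of 7 alternative fits, apart from those that left out 1 library, 4 kept the call. Osteocyte and osteoblast markers moved in the same direction: osteocyte markers summed to 212 to 328 CPM in normal and 0.230 to 3.09 CPM in delayed healing, and 6 of 8 osteoblast markers were called lower. Chondrocyte markers (6 of 6 in the files) summed to 303 to 581 CPM in normal and 30.8 to 35.4 CPM in delayed healing, with Sox9, Col11a2 and Comp called lower. Their part in the 3 calls was not tested.

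Igfbp4, a binding protein that blocks IGF action until the protease PAPP-A cuts it, was at 169.5, 159 and 113 CPM in normal healing. The delayed libraries were at 34.0, 44.1 and 56.4 CPM, all below the normal ones. The difference was not called in the 9-library fit (log2 fold change -1.73, SE 0.67, adjusted p = 0.15), but was with the spread taken from these 2 groups alone (-1.61, adjusted p = 0.0287). The other binding proteins overlapped between the groups: Igfbp3, the main carrier of IGF in plasma, had a log2 fold change of -0.38 (SE 0.43), Igfbp5, a matrix-bound form abundant in bone, one of -1.15 (SE 0.76), and Igfbp6, which prefers IGF2, one of -1.13 (SE 0.71). None passed the edgeR test, with adjusted p of 0.609, 0.365 and 0.345.

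Both receptors were higher in every delayed library than in every normal one, without a call. Igf1r, the signalling receptor, was at 9.27, 7.10 and 6.17 CPM in normal and at 10.4, 13.4 and 14.7 CPM in delayed healing (log2 fold change 0.75, SE 0.33, edgeR adjusted p = 0.191). Igf2r, the mannose 6-phosphate receptor that sorts lysosomal enzymes and clears IGF2, was at 253, 184 and 289 CPM against 326, 471 and 314 CPM. Its log2 fold change was 0.58 (SE 0.39, edgeR adjusted p = 0.377).

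Igf2, the fetal-type growth factor of the family, had a wide spread within delayed healing. It was at 1.61, 101 and 4.07 CPM there, against 44.9, 42.5 and 36.1 CPM in normal healing. Only delayed 2 was above the normal libraries, and the other two delayed libraries were far below them. With all 9 libraries the log2 fold change was -0.28 (SE 1.19, edgeR adjusted p = 0.906). Without delayed 2 it was -3.84 (adjusted p = 0.022), a call. H19, the non-coding RNA of the same imprinted cluster, was at 214.5, 11066 and 429.8 CPM in delayed 1, 2 and 3, and at 614 to 824 CPM in normal healing. The 5 of 6 skeletal muscle markers in the files, none at 0 in all libraries of a group, summed to 149, 25929 and 914 CPM in delayed 1, 2 and 3, and to 361 to 7066 CPM over the other 9 libraries. The part of muscle in the Igf2 value of delayed 2 was not tested.

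**Figure D3:**
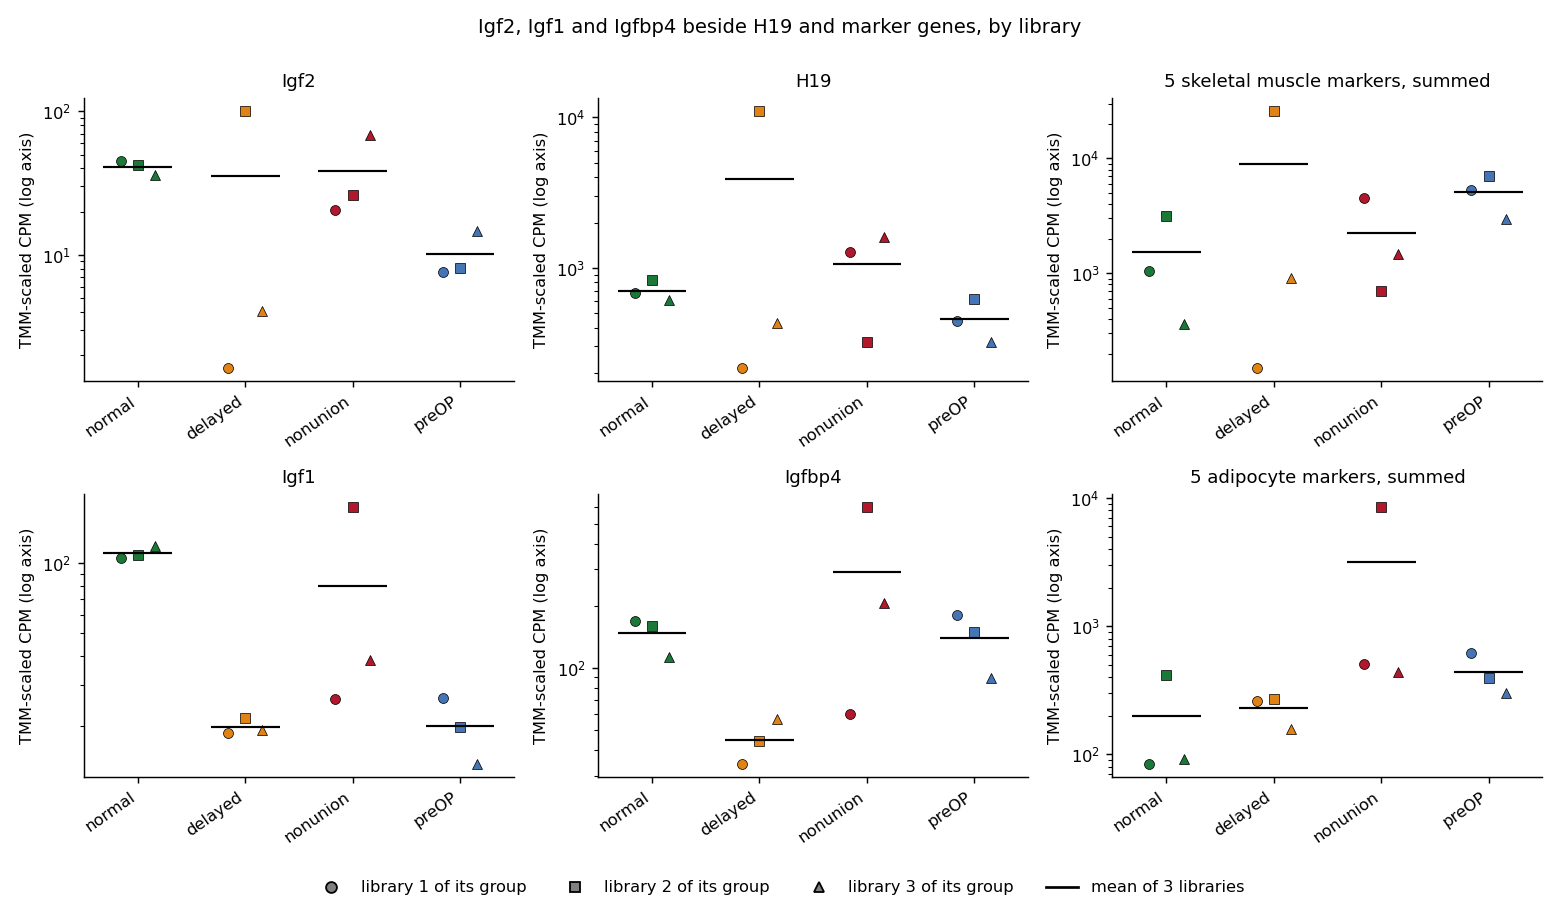
Panels plot TMM-scaled CPM on log axes by group for Igf2, H19 and 5 summed skeletal muscle markers (top), and for Igf1, Igfbp4 and 5 summed adipocyte markers (bottom), with a point per library and a bar at the mean. Delayed 2 is highest in the top panels, at 101, 11066 and 25929 CPM, and nonunion 2 in the bottom ones, at 176, 605 and 8553 CPM.

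Nonunion hematoma, from the 5.0 mm defect, was compared with normal healing to ask whether the family differs where bone does not bridge. In that comparison edgeR called 0 of 10 members, against 2.37% of all genes (111 higher, 185 lower). DESeq2 called 1271 genes, of which 1 is a member, Igfbp2. At an unadjusted p under 0.05, edgeR counted 2558 of 12474 genes. Libraries overlapped for 9 of 10 members, while 29.5% of all genes did not overlap. Igfbp2 was the exception, at 0.16, 0.31 and 0.33 CPM in nonunion from 4, 2 and 8 reads, below all 3 normal libraries (log2 fold change -2.90, SE 0.88, edgeR adjusted p = 0.112).

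The nonunion libraries were spread widely. Igf1 was at 26.0, 176 and 38.5 CPM, Igfbp4 at 59.6, 605 and 206 CPM, and Igfbp7 at 67.5, 499.6 and 177 CPM. Nonunion 2 was the highest of all 12 libraries for these genes and for Igfbp5 (42.6, 123 and 47.0 CPM) and Igfbp6 (23.5, 158 and 54.5 CPM). Adipocyte markers (5 of 5 in the files) summed to 509, 8553 and 443 CPM in nonunion 1, 2 and 3 and to 83.8 to 617 CPM elsewhere, and Lep was at 0 in all 3 normal libraries. The growth hormone receptor Ghr was at 11.8, 436 and 17.6 CPM, and the acid-labile subunit Igfals, which joins circulating IGF complexes, at 0.20, 10.9 and 0.041 CPM. The part of fat, and of the ribosomal share of that library, in these values was not tested.

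Without nonunion 2, Igf1 was lower in nonunion than in normal healing, with a log2 fold change of -1.75 (edgeR adjusted p = 0.0301), against -0.56 (SE 0.60, adjusted p = 0.635) with all libraries. In the same fit without nonunion 2, Igfbp4 stood at -0.11 and Igfbp6 at -0.47, against 0.90 (SE 0.66) and 0.43 (SE 0.71) with it. Igfbp7 went from -0.21 (SE 0.61) to -1.11. None of these 3 was called either way. The median over the 10 members was -0.04 with all libraries, and -0.03 over all genes.

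Nonunion against delayed healing had no called member, and 0% of all genes were called by edgeR, with 881 of 12474 at an unadjusted p under 0.05. DESeq2 called 180 genes, of which 2 are members, Igfbp4 (2.65, adjusted p = 0.0154) and Igfbp7 (2.53, adjusted p = 0.014). Igf1, Igfbp4, Igfbp5 and Igfbp7 were higher in all 3 nonunion libraries than in all 3 delayed ones, and 8.91% of all genes did not overlap in one direction or the other. With all libraries the log2 fold changes of these 4 members by edgeR were 1.94 (SE 0.62), 2.63 (SE 0.69), 2.08 (SE 0.78) and 2.51 (SE 0.64), with adjusted p of 0.542, 0.433, 0.638 and 0.433. Without nonunion 2 they fell to 0.65, 1.51, 1.41 and 1.50, with edgeR adjusted p of 0.838, 0.767, 0.934 and 0.724. The member median with all libraries was 1.27, against -0.05 over all genes. Endothelial markers summed to 445, 1321 and 732 CPM in nonunion and to 148 to 283 CPM in delayed healing. Their part was not tested.

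**Figure D4:**
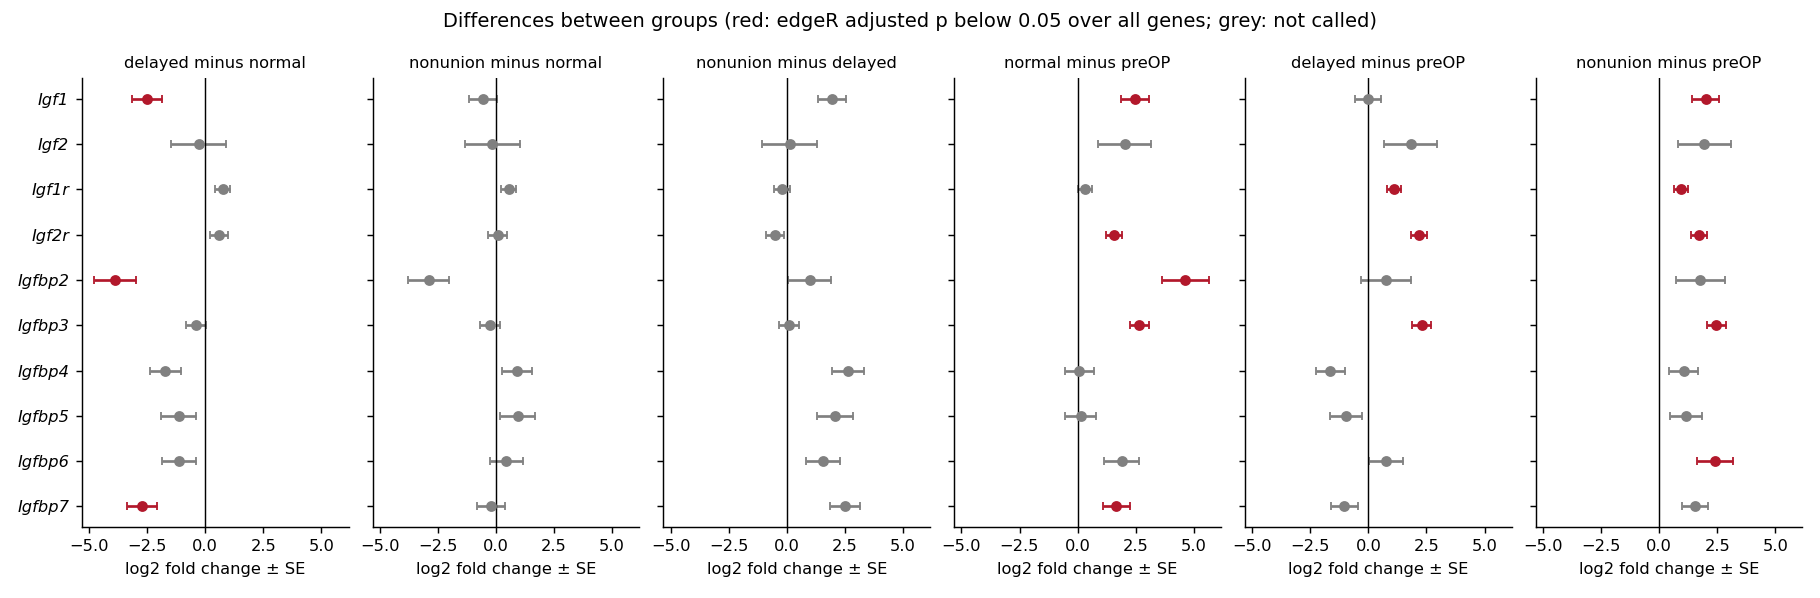
Log2 fold changes of the 10 genes are plotted for each of the 6 comparisons, with bars of 1 SE from edgeR, red points for called genes and grey points for the others. Red points lie below 0 for Igf1, Igfbp2 and Igfbp7 in delayed minus normal healing. In the 3 comparisons with preOP every red point, whichever its gene, lies above 0.

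Against healthy femur, which shows how hematoma differs from untreated bone, every member called in the 12-library fit was higher in hematoma. In normal healing 5 of 10 were called (Igf1, Igf2r, Igfbp2, Igfbp3, Igfbp7), against 42.6% of all 12846 genes tested (2630 higher, 2836 lower). In delayed healing 3 of 10 were called (Igf1r, Igf2r, Igfbp3), against 28.2%, and in nonunion 5 of 10 (Igf1, Igf1r, Igf2r, Igfbp3, Igfbp6), against 28.4%. The share of members called is thus near the background in the delayed and normal comparisons. Member medians were 1.78, 0.75 and 1.75, and medians over all genes -0.09, -0.03 and -0.00. These comparisons share the 3 femur libraries, so they are not independent of each other. The share of all genes whose libraries do not overlap femur was not counted. A lack of overlap with femur is therefore given below as description only.

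Igfbp3 and Igf2r were the steadiest of these. Igfbp3 was at 21.7, 24.8 and 27.2 CPM in femur, and between 86.6 and 214 CPM in the 9 hematomas. No hematoma library overlapped the femur, and group means were 6.29, 4.88 and 5.51 times that of femur in normal, delayed and nonunion hematoma. The log2 fold changes were 2.65 (SE 0.40), 2.29 (SE 0.40) and 2.46 (SE 0.40), with edgeR adjusted p of 0.000632, 0.00195 and 0.00148. Igf2r was at 80.5, 83.2 and 80.0 CPM in femur, an SD of 1.71 CPM, and between 149 and 471 CPM in hematomas. Its log2 fold changes were 1.58 (SE 0.34), 2.19 (SE 0.35) and 1.72 (SE 0.34), with adjusted p of 0.00418, 0.00127 and 0.0044. Both genes were called in every fit that left out 1 library. Fibroblast markers (5 of 6 in the files) summed to 839 to 2012 CPM in femur and to 6138 to 20366 CPM in hematomas. Most of the hematoma sum was Col3a1. Of the 5 markers, 5 were called higher in normal healing, 3 in delayed healing and 3 in nonunion. Lum was at 250 to 290 CPM in femur, 290 to 530 in delayed healing and 263 to 540 in nonunion. Postn was at 206 to 607 CPM in femur, 304 to 701 in delayed healing and 284 to 1022 in nonunion. Macrophage markers (6 of 6) summed to 391 to 677 CPM in femur and to 910.0 to 1918 CPM in hematomas, with Cd68, Csf1r and Mrc1 called higher in all 3 comparisons. Others of that list did not share this rise. C1qa was at 143 to 189 CPM in femur, 98.8 to 112 in normal, 77.2 to 129 in delayed healing and 67.8 to 338 in nonunion. Cd163 was at 77.5 to 157 CPM in femur, 25.3 to 67.9 in normal, 56.2 to 85.8 in delayed healing and 75.2 to 354 in nonunion. The part of fibroblasts or macrophages was not tested.

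Igf1 was at 26.3, 19.7 and 13.6 CPM in femur, which is the level of delayed healing: that log2 fold change was -0.01 (SE 0.57, edgeR adjusted p = 0.995). Normal healing was higher by 2.48 (SE 0.60, adjusted p = 0.00704) and nonunion by 2.00 (SE 0.59, adjusted p = 0.0258). The nonunion call was lost without preOP 2 or preOP 3 (adjusted p = 0.0661 and 0.0988), with the replicate block (0.0542) and with only the groups compared (0.07). Without nonunion 2 the log2 fold change was 0.85 (adjusted p = 0.0416).

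Igfbp7 was at 101, 82.7 and 72.6 CPM in femur, below all normal and above all delayed libraries. Normal healing was higher by 1.67 (SE 0.57, edgeR adjusted p = 0.0364), a call lost in 6 of 6 fits without 1 library, with adjusted p of 0.0549 to 0.108. Nonunion had a log2 fold change of 1.54 (SE 0.57, adjusted p = 0.0667), which DESeq2 called (adjusted p = 0.0197). Without nonunion 2 it was 0.68 (edgeR adjusted p = 0.244), and without nonunion 1 it was 2.06 (edgeR adjusted p = 0.00753). Delayed healing had one of -1.03 (SE 0.57, adjusted p = 0.2). Igfbp4 and Igfbp5 were likewise lower in all delayed libraries than in all femur ones, at -1.64 (SE 0.63, adjusted p = 0.0766) and -0.95 (SE 0.69, adjusted p = 0.332). None of the 3 was called there in the 12-library fit. Igfbp4 was called lower with only the groups compared (-1.42, adjusted p = 0.02) and without delayed 2 and nonunion 2 (-1.40, adjusted p = 0.0489).

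Igfbp2 had 2, 0 and 2 reads in femur, at most 0.12 CPM. Normal healing was higher, with a log2 fold change of 4.64 (SE 1.01, edgeR adjusted p = 0.00419). Igfbp6 was at 6.76, 10.9 and 27.0 CPM in femur, below all normal libraries, whose mean was 3.73 times as high. That difference was not called (1.90, SE 0.76, adjusted p = 0.0646), but was in 4 of 7 alternatives, with adjusted p of 0.0133 to 0.023 there. Nonunion was higher by 2.40 (SE 0.77, adjusted p = 0.0388), but without nonunion 2 by 1.56 (adjusted p = 0.115), and the call was also lost without preOP 1 or preOP 2 and with only the groups compared. Igf1r was at 6.56, 6.70 and 4.68 CPM in femur, below every delayed and nonunion library. The increases were 1.10 (SE 0.31, adjusted p = 0.0215) and 0.95 (SE 0.31, adjusted p = 0.0403). The delayed call was lost without preOP 3 (0.95, adjusted p = 0.0902), and the nonunion call without nonunion 1 or any 1 preOP library, with no filter and with the replicate block (0.0553). Igf2 was at 7.55, 8.12 and 14.5 CPM in femur and was not called, with log2 fold changes of 2.03 (SE 1.15), 1.82 (SE 1.14) and 1.93 (SE 1.14) in normal, delayed and nonunion hematoma. All normal and all nonunion libraries were above all femur ones. Both differences were called with only the groups compared (adjusted p = 0.0011 and 0.0308) and without delayed 2 and nonunion 2 (adjusted p = 0.00381 and 0.00598). In delayed healing the value turned to -1.59 without delayed 2 (adjusted p = 0.0648) and was called lower without delayed 2 and nonunion 2 (-1.59, adjusted p = 0.046).

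Salmon split Igf1 over 4 RefSeq transcripts. NM_001082479 (1827 bases) took most of the Igf1 TPM in every library, 52.2 to 75.2%. NM_001082477 (1582 bases) took 4.81 to 7.24% in normal healing and at most 1.22% in all other libraries. NM_001082478 (1879 bases) took 27.1 to 29.5% in normal healing, 23.4 to 29.7% in delayed healing, 15.5 to 26.2% in nonunion and 2.09 to 12.8% in femur. NM_178866 (1530 bases) ran the other way, with 14.1 to 26.5% in femur and 1.13 to 15.9% in hematomas, where only nonunion 2 reached into the femur range. The transcripts differ from each other by 52 to 349 bases of length, the split is an estimate by Salmon, and the normal healing files also differ in their fragment lengths. For Igf2, estimates moved between 2 transcripts 12 bases apart in length from one library to the next, and only the gene sum is used here.

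**Figure D5:**
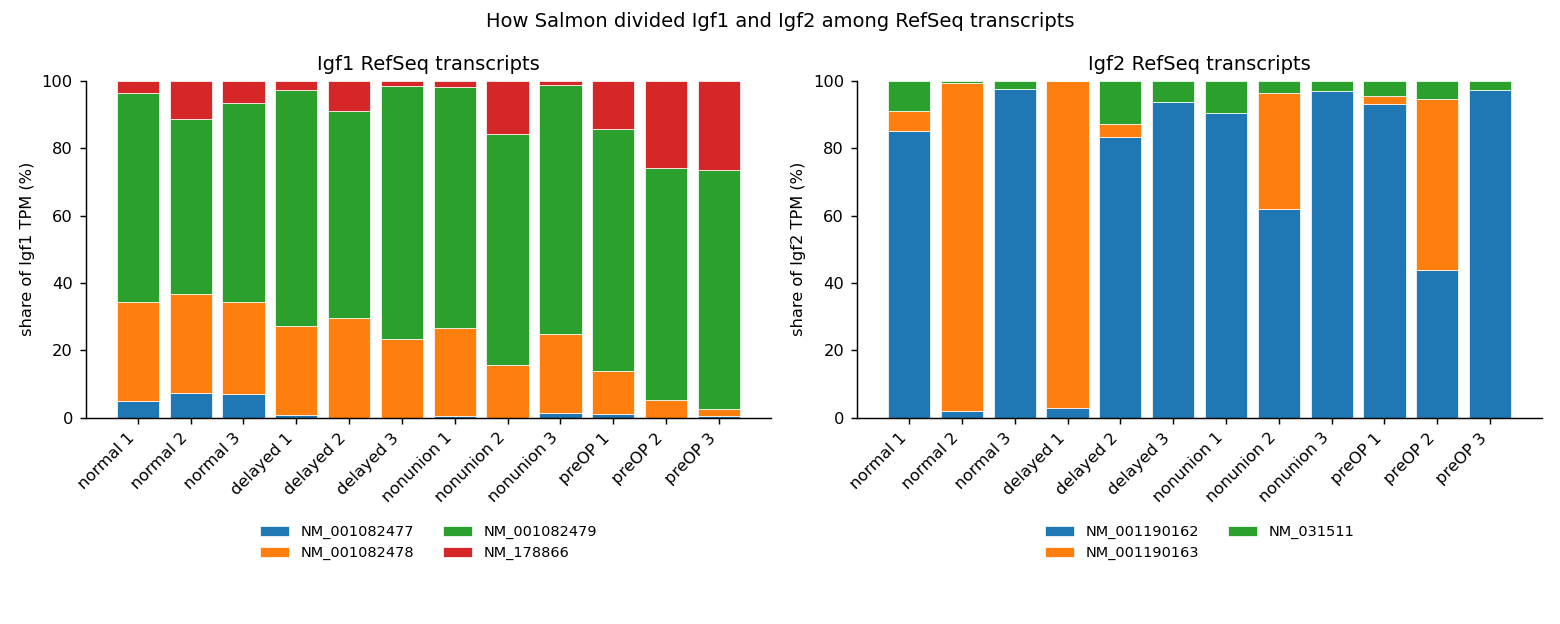
Stacked bars show the share, in percent of the gene's TPM, given to each RefSeq transcript of Igf1 and Igf2 in each library. The Igf1 transcript of 1879 bases takes 2.09 to 12.8% in preOP and 27.1 to 29.5% in normal healing, while the Igf2 split swaps between transcripts within groups.

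A further 40 genes of the IGF axis were counted, from ligand-freeing proteases through receptor adaptors to the kinases and transcription factors downstream. Of these, 34 were in the files, and 31 were tested among hematomas and 32 in the comparisons with femur. In delayed against normal healing 2 of 31 were called higher and 0 lower, a share close to the 7.13% over all genes. Tsc2, a brake on the growth kinase mTOR, was at 36.8, 44.9 and 32.4 CPM in normal and 69.9, 87.8 and 85.6 CPM in delayed healing. Its log2 fold change was 1.08 (SE 0.21, edgeR adjusted p = 0.0241). Pdk1, the other call, was counted because it is on the list. Under this symbol it is a kinase of pyruvate dehydrogenase and not the kinase that activates AKT. Its log2 fold change was 1.23 (SE 0.31, edgeR adjusted p = 0.0477). Without normal 1, normal 3, delayed 1 or delayed 3, neither was called. The axis median was 0.47. No axis gene was called by edgeR in nonunion against normal or against delayed healing. DESeq2 called 1 in each, against 1271 and 180 of all genes.

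Against femur, 5 axis genes were called higher and 9 lower in normal healing, 6 and 2 in delayed healing, and 7 and 3 in nonunion, of 32 tested. Those shares are near the 42.6, 28.2 and 28.4% called over all genes, so the counts are not a result about the axis. Htra1, a secreted protease that cuts IGF binding proteins, was at 25.4, 38.6 and 50.7 CPM in femur and at 200.4 to 555 CPM in hematomas, with no overlap. It was called in each comparison, with log2 fold changes of 3.62 (SE 0.38), 2.95 (SE 0.37) and 3.07 (SE 0.37) in normal, delayed and nonunion hematoma and edgeR adjusted p of 0.000127, 0.000371 and 0.000317. Stc2, which inhibits PAPP-A, was at 0.519 to 0.555 CPM in femur and 1.35 to 37.3 CPM in hematomas, the top value being delayed 3. It was higher by 2.35 (SE 0.85), 4.85 (SE 0.92) and 3.16 (SE 0.87), with adjusted p of 0.0444, 0.00321 and 0.0197.

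Igf2bp2, an RNA-binding protein named for its binding of Igf2 mRNA, was at 1.23 to 1.65 CPM in femur and 4.33 to 23.8 CPM in hematomas. It was higher by 2.18 (SE 0.52), 3.42 (SE 0.54) and 3.33 (SE 0.54), with edgeR adjusted p of 0.00674, 0.00121 and 0.00146. Its relative Igf2bp1 had 0 reads in femur and 43 over the delayed libraries, which is at least 3.65-fold higher against 3 reads per femur library. In nonunion it had 17 reads, at least 1.44-fold higher, and both were called (adjusted p = 0.00935 and 0.0255). Foxo3, a transcription factor that AKT keeps out of the nucleus, was at 38.1 to 55.6 CPM in femur and 2.82 to 15.8 CPM in hematomas. It was lower in all 3 comparisons, with log2 fold changes of -2.25 (SE 0.51), -2.16 (SE 0.51) and -2.45 (SE 0.52) in normal, delayed and nonunion hematoma and adjusted p of 0.00521, 0.0095 and 0.00557.

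Likeness of pattern was measured as the root mean square difference of log2 CPM, centred on each gene's mean, over the 12 libraries, for the 9 members whose group means span at least 2 on the log2 scale. Igf1 was closest to Cspg4 (0.47), Smpd3 (0.55) and Pdgfrl (0.56). Igf2 was closest to Cdh13 (0.47), Hspb1 (0.68) and a transcript without a symbol, NM_001107236 (0.84), and Igf2r to Slc35f5 (0.24), Plekhb2 (0.25) and Myof (0.28). Igfbp3 was closest to Pxdn (0.26), Aebp1 (0.29) and Fkbp9 (0.30), Igfbp4 to Pear1 (0.47), Ldb2 (0.48) and Vstm4 (0.49), and Igfbp5 to Erg (0.38), Tanc1 (0.53) and Nr2f2 (0.59). Igfbp6 was closest to Rem1 (0.40), Npdc1 (0.45) and Ddah2 (0.51), and Igfbp7 to Ramp2 (0.31), Bace2 (0.36) and Aplnr (0.41). For Igfbp2 these were Id3 (0.40), NM_001109486, also without a symbol (0.43), and Tpgs1 (0.49), with the scale of Igfbp2 compressed by its low counts. Among the members themselves, Igf1 and Igfbp7 were closest (0.53), then Igfbp4 and Igfbp7 (0.62) and the 2 receptors (0.67). These values describe 12 libraries that share groups and single outlying libraries.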

How the data were processed

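RNA from 12 libraries was extracted with Trizol and 1 ug of it prepared with the Illumina TruSeq kit, per the labels' protocols. Reads went through bcl2fastq 1.8.4, FastQC, Trimmomatic and Salmon with build rn6, per the submitters' processing notes; the sources used here do not give other versions or the strand setting and so reads of a gene and of an antisense partner cannot be told apart. Per the file headers, the deposited values are estimated counts per RefSeq transcript (not scaled), TPM, and effective lengths. Of 18321 transcripts, 17367 matched 16425 symbols in a RefSeq table (GRCr8, used for names, gene order and promoter windows), and 954 were kept as single features.

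Estimated counts were summed by symbol, rounded and tested with edgeR 4.0.16 (R 4.3.3): TMM, filterByExpr by group, two-sided quasi-likelihood F-tests, Benjamini-Hochberg over all genes. Hematomas were compared in 1 fit of 9 libraries (12474 genes), and femur in 1 fit of 12 (12846 genes). The SE divides the size of each log2 fold change by the square root of its F. CPM carry the TMM factors of the 12-library fit. TPM compare levels between genes and carry no test. A library with 0 reads is bounded by 3 reads, which covers counting error only. The fits were checked on simulated counts. Alternatives were DESeq2 1.42.0, its size factors, no filter, effective lengths, only the groups compared, a replicate block and libraries left out.

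The members, the other lists and the tests were chosen with earlier results of these data known. All 10 members are named, with up to 4 called axis genes of largest fold change per comparison and, for members whose group means span at least 2 on the log2 scale, the 3 genes of closest pattern (mean CPM of at least 5). Igfals, Ghr and H19 were named after their values were seen. Igfbp1 and Igfbpl1 did not pass the filter, and Adam12, Grb10, Igf2bp3, Irs4, Pappa and Pappa2 are not analysed here.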

Additional observations from a re-analysis of the deposited data

Results flagged for a closer look

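For 3 members the effect against femur differed between delayed and normal healing hematoma by the test of that difference, which is the delayed against normal comparison itself since the femur libraries cancel. The differences in log2 fold change were -2.51 for Igf1, -3.88 for Igfbp2 and -2.72 for Igfbp7 (edgeR adjusted p = 0.047, 0.0383 and 0.0399). Igf1 and Igfbp7 were lower in all 3 delayed libraries than in all 3 normal ones, as was Igfbp2. Groups of 3 libraries are too small for a test of single outlying values, so delayed 2 and nonunion 2 were not tested as outliers.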

How the results depend on the processing

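Over the alternatives that keep all libraries or drop both delayed 2 and nonunion 2, 372 of 411 member values kept their direction and side of the threshold, 17 gained a call, 13 lost one and 9 reversed. Of 360 values with 1 library left out, 297 kept both, 33 lost a call, 5 gained one and 25 reversed, and every such fit has fewer samples. DESeq2 gave no adjusted p for Igf2, and Igfbp2 did not pass the filter in 3 fits of only the groups compared. Low counts limit Igfbp2.

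Replicate numbers gave no clear sign of pairing: deviations of same-numbered libraries correlated above 0.1 in 4 of 18 pairs (-0.18 to 0.19). Differently numbered pairs ran from -0.35 to 0.35, and 3 of 12 libraries were closest to one of their own number. Deviations from means of 3 libraries cannot exclude shared animals or batches. With the replicate block, 1 member (Igfbp7) and 433 genes were called in delayed minus normal and 148 genes in nonunion minus normal. In nonunion minus preOP that block gave 3 members and 3385 genes.

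In delayed minus normal, 1 member and 687 genes were called with no filter, and DESeq2 called 3 members and 1996 genes. For nonunion minus normal DESeq2 called 1 member and 1271 genes, and for nonunion minus delayed 2 members and 180 genes. Without delayed 2 and nonunion 2, 4 members and 2056 genes were called in delayed minus normal, and 1 member (Igf1) and 428 genes in nonunion minus normal. In the fits without these 2 libraries, 60 genes were called in nonunion minus delayed, and 5 members and 5412 genes in delayed minus preOP. There the log2 fold changes in nonunion minus normal became 0.14 for Igf2, -0.12 for Igfbp4 and -0.48 for Igfbp6. Igfbp3 became -0.57 in nonunion minus delayed, and Igf2 -1.59 in delayed minus preOP. Igf1 in delayed minus preOP, at -0.01, became 0.12 with DESeq2 and its size factors, 0.14 without the 2 libraries and 0.20 with only the groups compared. The cause of these changes was not tested.

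With 1 library left out in turn, delayed minus normal had 0 to 2 members and 175 to 726 genes called, the highest without delayed 2. Nonunion minus normal had 0 to 1 members and 23 to 158 genes, nonunion minus delayed 0 to 1 genes, delayed minus preOP 2292 to 4030 genes, and nonunion minus preOP 2 to 6 members and 2334 to 4221 genes. Log2 fold changes that changed sign ran as follows. In delayed minus normal, Igf2 ran from -3.84 to 0.28. In nonunion minus normal, Igf2 ran from -0.90 to 0.15, Igf2r from -0.31 to 0.46, Igfbp3 from -0.65 to 0.046, Igfbp4 from -0.11 to 1.38, Igfbp6 from -0.47 to 0.86 and Igfbp7 from -1.11 to 0.23. In nonunion minus delayed, Igf2 ran from -0.63 to 3.68 and Igfbp3 from -0.38 to 0.47. In normal minus preOP, Igfbp4 ran from -0.16 to 0.40 and Igfbp5 from -0.45 to 0.63. In delayed minus preOP, Igf1 ran from -0.22 to 0.40 and Igf2 from -1.59 to 2.40.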
